A study of Homo sapiens with 9 samples.

Results

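Interferon-stimulated genes are the antiviral effector genes that cells switch on when an interferon binds its receptor. Type I interferons act through IFNAR1 and IFNAR2, whose kinases JAK1 and TYK2 pass the signal on to transcription factors. A complex that holds IRF9 then binds the interferon-stimulated response element (ISRE) in the promoters of these genes. Hodgkin and Reed-Sternberg cells, the tumour cells of Hodgkin lymphoma, derive from B cells and are known for active NF-kB and JAK-STAT signalling. The set described here holds 37 such genes, taken by gene symbol from a list of names that was chosen with earlier results of these data known. All 37 were found, each with 1 row among the 20893 transcript clusters of the array that were tested.

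The cells were L-1236, an established line from a Hodgkin lymphoma, and their RNA was hybridised to 9 Clariom S arrays, 3 in each of 3 groups. Control cells, called v2 or wild type, carried the lentiCRIPSPR_v2 vector with no guide against LTA named in the labels. Clone g2_1 (genotype lentiCRIPSPR_v2-LTA_g2) was made with a guide to the second LTA exon (LTA encodes the secreted cytokine lymphotoxin alpha), and clone g3_4 (lentiCRIPSPR_v2-LTA_g3) a guide to the fourth. Each knockout is thus 1 single-cell clone, so an effect of LTA and a trait of that clone cannot be told apart within a clone. Before RNA was taken, the clones grew in L-1236 conditioned medium and then for 72 h in fresh medium; whether the control cells were a clone or shared this culture is not given, and no interferon or other stimulus is named for any group. No label ties the 3 arrays of a group to separate cultures, so the p-values measure a spread between samples that may be technical only.

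The deposited values are log2 signals, and all levels below are on that scale. They have no detection flags; the first quartile of all rows lay at 4.62 to 4.66 and the median at 6.15 to 6.29 on the 9 arrays. LTA itself was at 11.58, 11.07 and 11.08 on the control arrays, at 7.97, 7.53 and 7.11 in g2_1 and at 6.94, 7.25 and 6.61 in g3_4. The RNA integrity number was 10 for array 1 of every group and 9.5 to 9.6 for the others, so array number and RNA integrity cannot be told apart. Of 9 marker genes of Hodgkin cell lines, 6 were above the array median on every array, among them TNFRSF8 (CD30) at 10.91 to 12.01. The others, CCL17, CCL22 and IL13, were above it on some arrays only. Their means in control cells, g2_1 and g3_4 were 6.78, 5.86 and 5.80 for CCL17, 6.32, 5.06 and 5.22 for CCL22, and 5.05, 5.89 and 5.14 for IL13. Of the 4 T cell markers found, CD3D, CD3E and CD3G (3.89 to 4.98) were below the median on every array, whereas CD2 was above it on every array and had higher means in g2_1 (9.40) and g3_4 (9.35) than in the control cells (7.82). Of 5 monocyte markers 3, among them CD14 and LYZ (4.08 to 5.48), were below it on every array and CSF1R (6.95 to 7.77) above it. Of 6 B cell markers found, 3 were above the median on every array and MS4A1 (4.22 to 4.56) below it, and of 3 fibroblast markers COL1A2 was above it and DCN below it. Of the 4 markers found for plasmacytoid dendritic cells, a main source of type I interferon, CLEC4C (4.11 to 4.44) was below the median on every array and IRF7, IL3RA and TCF4, which other cells express too, were above it. The summed level of a list ranged over the arrays from 20.44 to 22.78 for T cells, from 26.3 to 27.61 for monocytes, from 37.5 to 39.42 for B cells, from 19.3 to 20.68 for fibroblasts and from 28.27 to 30.71 for plasmacytoid dendritic cells. The part of such cells in the results was not tested.

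The set split. In both clones 8 members fell against control, MX1, IFI44L, XAF1, EPSTI1, IFIT3, IFIT2, IFI44 and IFIT1, and 4 rose, IFI6, OAS2, HERC5 and SAMD9. A member is said to have fallen or risen where its adjusted p was under 0.05 in limma, and in both clones where this held in each with the same sign. The falls were the larger changes: MX1, a dynamin-like GTPase that blocks viruses, was 11.8-fold lower in g2_1 and 11.9-fold lower in g3_4, while the largest rise, that of IFI6, was 0.90 (log2, SE 0.16). The 8 members that fell in both clones are 21.6% of the set, against 6.97% of all transcript clusters, and the 4 that rose are 10.8%, against 4.48%. As the list was chosen with earlier results of these data known, these and later shares are not a test of the set. The median change of the 37 members was 0.01 in g2_1 and 0.13 in g3_4, beside 0.03 over all transcript clusters in each comparison, with 21 members above 0 and 16 below in g2_1 and 19 above and 18 below in g3_4. Leaving out single arrays moved the counts: the falls numbered 5 without g2_1 array 3, and the rises 2 without g3_4 array 2 and 9 without control array 1. Of these fits, the share of all transcript clusters is given, further below, only for the last. Both comparisons use the same control arrays.

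**Figure D1:**
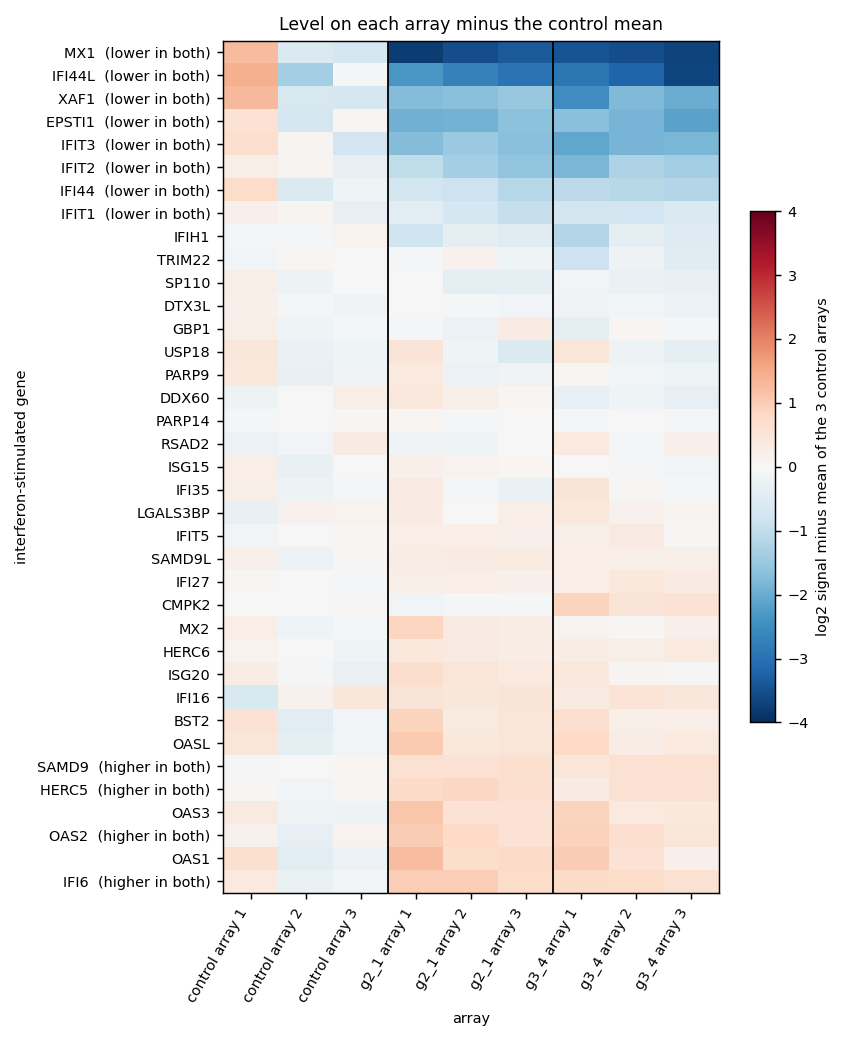
Heat map of all 37 members (rows, ordered by the mean change of both clones) on the 9 arrays (columns); the colour is the log2 signal minus the mean of the 3 control arrays. The 8 members at the top are blue on all 6 clone arrays, MX1 and IFI44L most deeply, and the OAS genes, HERC5, SAMD9 and IFI6 at the bottom are red there.

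Promoter sequence was available in RefSeq (GRCh38.p14) for 31 of the 37 members; IFIT2, MX2, OAS2, OASL, USP18 and TRIM22 had no entry. The core of the ISRE, GAAA followed by any 2 bases and a further GAAA, on either strand, was searched from 250 bases before to 50 bases after each start site; the motif can overlap itself. It was present in 27 of 43 member windows (62.8%), against 3.57% of all 35116 windows of that length. By gene, 23 of the 31 members had it. It was found in members that fell and in members that rose: 6 of 7 of the former with a window held a match (XAF1 being the one without), 3 of 3 of the latter, and 14 of 21 of the others. A match is a description of the letters, not evidence of a bound site. The stretches that follow show matches in genes that fell, in genes that rose and in IFIT5, which did not pass. They were picked for holding a match, so their likeness within the motif follows from the search. Each is written 5′ to 3′ on the strand of the gene, and the capitals mark matches to the motif or its reverse complement.
IFI44L, fell, chr1:78620335-78620394, plus strand: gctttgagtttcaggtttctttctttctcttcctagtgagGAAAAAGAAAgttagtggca
EPSTI1, fell, chr13:42992257-42992316, minus strand: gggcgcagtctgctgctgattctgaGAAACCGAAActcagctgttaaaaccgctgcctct
IFIT3, fell, chr10:89327833-89327892, plus strand: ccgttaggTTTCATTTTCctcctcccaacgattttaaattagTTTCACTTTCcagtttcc
IFIT1, fell, chr10:89392488-89392547, plus strand: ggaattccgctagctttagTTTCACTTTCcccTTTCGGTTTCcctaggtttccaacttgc
IFI44, fell, chr1:78649729-78649788, plus strand: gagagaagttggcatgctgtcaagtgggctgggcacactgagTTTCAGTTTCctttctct
MX1, fell, chr21:41420559-41420588, plus strand: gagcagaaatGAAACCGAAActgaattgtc
IFI6, rose, chr1:27672266-27672325, minus strand: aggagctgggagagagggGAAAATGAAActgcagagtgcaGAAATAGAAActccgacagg
HERC5, rose, chr4:88457005-88457064, plus strand: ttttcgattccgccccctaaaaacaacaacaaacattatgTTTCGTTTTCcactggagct
SAMD9, rose, chr7:93118081-93118140, minus strand: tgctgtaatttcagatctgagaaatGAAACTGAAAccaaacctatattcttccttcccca
IFIT5, did not pass, chr10:89414508-89414567, plus strand: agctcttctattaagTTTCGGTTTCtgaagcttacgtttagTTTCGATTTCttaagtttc
EPSTI1, which fell, and MX1, which fell, hold the same 10 letters GAAACCGAAA, and IFIT1 and IFIT5 share TTTCGGTTTC, its reverse complement, although IFIT1 fell and IFIT5 did not pass the test. Where a gene had several listed start sites, the stretch was taken at the most upstream one whose window held a match. MX1 had 3 windows, 2 of them with a match. Its stretch lies just after the start site taken, and the others lie before theirs.

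MX1 had the largest change of the set. It was at 9.54, 7.69 and 7.57 on control arrays 1, 2 and 3, at 4.48, 4.72 and 4.91 in g2_1 and at 4.81, 4.73 and 4.56 in g3_4. All clone values lay far below all control values and close to the first quartile of all signals, where RMA values flatten, so the fall may be compressed. The change was -3.56 (SE 0.41, adjusted p = 0.000173 in limma) in g2_1 and -3.57 (SE 0.41, adjusted p = 0.000176) in g3_4. Its neighbour MX2, which encodes the related GTPase and lies next to MX1 on chromosome 21, was at 6.0, 5.57 and 5.65 in control cells, at 6.59, 6.11 and 6.03 in g2_1 and at 5.89, 5.78 and 5.95 in g3_4. MX2 did not pass in either clone (0.50, adjusted p = 0.0622, and 0.13, adjusted p = 0.680, in limma), but in g2_1 it was higher without control array 1 (0.63, adjusted p = 0.0183), after centring the arrays on their medians (adjusted p = 0.0214) and with array weights (adjusted p = 0.0187). The level of MX1 over that of MX2 on the same array was 2.53 ± 0.88 (SD, n = 3) in control cells and -1.36 ± 0.40 (SD, n = 6) in the clones, with no overlap between the groups (exact two-sided permutation test of the 6 clone against the 3 control arrays, p = 0.0119, the smallest that 84 splits can give; adjusted p = 0.0289 over 17 pairs of members at shared loci). GBP1, a guanylate-binding protein, was low throughout, at 4.30 to 5.01, and did not pass.

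The IFIT genes, which lie in a cluster on chromosome 10, encode proteins that bind foreign RNA. IFIT3, a scaffold of the IFIT complex, was at 7.57, 7.02 and 6.14 in control cells, at 5.19, 5.43 and 5.25 in g2_1 and at 4.84, 5.05 and 5.09 in g3_4. IFIT2 was at 7.30, 7.18 and 6.76 in control cells, at 6.06, 5.71 and 5.49 in g2_1 and at 5.24, 5.85 and 5.73 in g3_4. Both were lower on every clone array than on any control array. The change of IFIT3 was -1.62 in g2_1 and -1.92 in g3_4 (SE 0.28, adjusted p = 0.0024 and 0.000838 in limma), and that of IFIT2 -1.33 and -1.47 (SE 0.20, adjusted p = 0.00114 and 0.000579). IFIT1, which recognises RNA without a methylated cap, was low already in control cells, at 5.21, 5.10 and 4.68, and fell by 0.70 in each clone (SE 0.16, adjusted p = 0.0130 and 0.0131), to 4.07 to 4.55. Its call was lost in g2_1 without g2_1 array 3 (adjusted p = 0.0591) and in g3_4 without g3_4 array 2 (adjusted p = 0.0546). IFIT5, which adjoins IFIT1, was at 6.50 to 6.69 in control cells and at 6.63 to 6.96 in the clones and did not pass in either, except in g2_1 after centring (0.36, adjusted p = 0.0449). Set against IFIT5 on the same array, IFIT3 changed by -2.0, IFIT2 by -1.63 and IFIT1 by -0.92 between control and clones, each without overlap. In the exact permutation test, added after the values were seen, each had p = 0.0119, the smallest it can give (adjusted p = 0.0289 over the 17 pairs). IFIT1, IFIT2 and IFIT3 already lay below all control arrays and IFIT5 moved little, so the test is no further support. It also counts the arrays of both clones as separate units.

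IFI44L and IFI44, which adjoin on chromosome 1 and encode related proteins, both fell. IFI44L was at 9.08, 6.27 and 7.58 in control cells, at 5.32, 4.95 and 4.68 in g2_1 and at 4.75, 4.44 and 3.96 in g3_4. Control array 2 was thus closer to the clones than to control array 1, though still above every clone array. The change was -2.66 in g2_1 and -3.26 in g3_4 (SE 0.54, adjusted p = 0.00677 and 0.0020 in limma). IFI44 was lower in control cells, at 6.65, 5.32 and 5.75, and fell to 5.18, 5.08 and 4.77 in g2_1 and 4.86, 4.81 and 4.75 in g3_4, changes of -0.90 (SE 0.27, adjusted p = 0.0465) and -1.10 (adjusted p = 0.0175). The call of IFI44 in g2_1 was lost without any single array other than control arrays 1 and 2 (adjusted p = 0.0651 to 0.159) and after centring the arrays on their medians (adjusted p = 0.0624), with array weights (adjusted p = 0.0537) and in a fit of only the groups compared (adjusted p = 0.106), and in g3_4 without any array of that clone (adjusted p = 0.0505 to 0.0609). The fall of IFI44L exceeded that of IFI44 by 1.96, without overlap between the groups. In the exact permutation test, added after the values were seen, p was 0.0119, the smallest it can give (adjusted p = 0.0289 over the 17 pairs). As the values were known and the arrays of both clones count as separate units, the test is no further support. The mean of IFI44 was below the array median in every group, and whether its fall is compressed was not tested. In the same family of names, IFI6, a small membrane protein that limits cell death, went the other way, at 10.15, 9.48 and 9.64 in control cells, 10.73, 10.74 and 10.50 in g2_1 and 10.51, 10.50 and 10.36 in g3_4. It rose by 0.90 (adjusted p = 0.00306) and by 0.70 (SE 0.16 each, adjusted p = 0.0129), and the groups did not overlap. In g3_4 the call was lost without g3_4 array 2 (adjusted p = 0.0511). IFI27 rose in g3_4 and did not pass in g2_1 (0.34, SE 0.09, adjusted p = 0.0313, and 0.23, adjusted p = 0.146), a call lost without g3_4 array 2 or 3 or control array 2 or 3 (adjusted p = 0.0798 to 0.123). It passed in g2_1 after centring (adjusted p = 0.0252), and IFI35, a partner of NMI, did not pass. The difference of IFI27 between the clones was 0.11 (95% interval -0.09 to 0.32).

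Of the effectors outside these families, EPSTI1 and XAF1 fell. EPSTI1 was at 8.35, 7.10 and 7.85 in control cells, at 5.84, 5.87 and 6.12 in g2_1 and at 6.10, 5.92 and 5.62 in g3_4, with changes of -1.82 (adjusted p = 0.000743 in limma) and -1.89 (SE 0.26 each, adjusted p = 0.000601). XAF1, which binds the apoptosis inhibitor XIAP, was at 9.15, 7.23 and 7.20 in control cells, at 6.12, 6.19 and 6.33 in g2_1 and at 5.36, 6.10 and 5.86 in g3_4. Control array 1 stood farther above the other control arrays than these stood above any clone array. The change of XAF1 was -1.65 (adjusted p = 0.0253) and -2.09 (SE 0.43 each, adjusted p = 0.00736), and its call in g2_1 was lost without g2_1 array 1, 2 or 3 (adjusted p = 0.0796, 0.0808 and 0.0656) and in a fit of only the groups compared (adjusted p = 0.0572). SAMD9, an antiviral restriction factor, rose from 9.95, 10.00 and 10.07 to 10.62, 10.60 and 10.65 in g2_1 and 10.49, 10.62 and 10.61 in g3_4, by 0.62 and 0.57 (SE 0.09, adjusted p = 0.000843 and 0.00149). It had the narrowest spread in control cells of the 12 members that moved in both clones. SAMD9L, its neighbour and paralog on chromosome 7, was above all control arrays on all clone arrays (10.46 to 10.58 against 10.00 to 10.43) but did not pass (adjusted p = 0.0916 and 0.222). In g2_1 SAMD9L passed without control array 1 (0.42, adjusted p = 0.0216), after centring (adjusted p = 0.0235) and with array weights (adjusted p = 0.0158), and in g3_4 with array weights (adjusted p = 0.0464). BST2 (tetherin, which holds virus particles at the cell surface), SP110 and LGALS3BP did not pass in either clone.

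**Figure D2:**
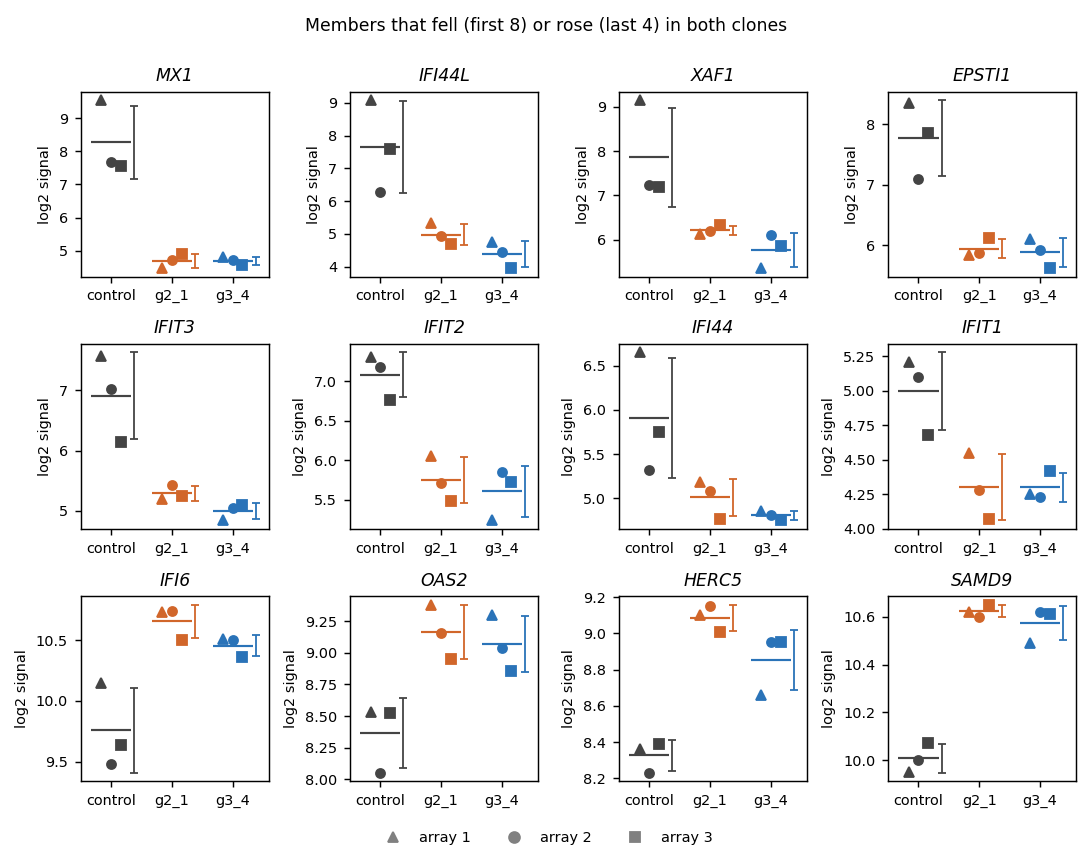
Log2 signal (vertical axis) of the 12 members that fell or rose in both clones, by group (horizontal axis); each point is 1 array, its shape the array number, the line the mean of 3 arrays and the bar the SD. In each panel the 6 clone arrays lie on one side of the 3 control arrays, and control array 1 is the highest control array in MX1, IFI44L, XAF1, EPSTI1, IFIT3, IFIT2, IFI44, IFIT1, IFI6 and OAS2.

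The OAS genes encode enzymes that sense double-stranded RNA and make 2′-5′ oligoadenylate, a second messenger; OASL lacks that activity. OAS1, OAS3 and OAS2 lie side by side on chromosome 12. All members of the family were higher in the clone means than in control, but only OAS2 passed in both clones. OAS2 was at 8.53, 8.05 and 8.52 in control cells, at 9.38, 9.16 and 8.95 in g2_1 and at 9.30, 9.04 and 8.86 in g3_4, a rise of 0.80 (adjusted p = 0.00855 in limma) and of 0.70 (SE 0.17 each, adjusted p = 0.0167). In g3_4 the call was lost without g3_4 array 1, g3_4 array 2 or control array 2 (adjusted p = 0.0714, 0.0521 and 0.0573). OAS3 was at 8.13, 7.58 and 7.57 in control cells, at 8.87, 8.34 and 8.35 in g2_1 and at 8.65, 8.16 and 8.19 in g3_4. It passed in g2_1 (0.76, SE 0.20, adjusted p = 0.0281) and not in g3_4 (0.57, adjusted p = 0.0900), and in g2_1 the call was lost without g2_1 array 1, control array 2 or control array 3 (adjusted p = 0.109, 0.0976 and 0.0858). OAS1 had changes of 0.91 and 0.60 (SE 0.28, adjusted p = 0.0553 and 0.216) and OASL of 0.65 and 0.49 (SE 0.24, adjusted p = 0.0993 and 0.224). Within the OAS1, OAS2 and OAS3 cluster the change between control and clones differed by 0.005 to 0.09 between any of its members (exact permutation p = 0.512 to 0.976), so no difference among them was detected with these arrays. Without control array 1, on which OAS1, OAS3 and OASL were high, all 4 OAS genes passed in both clones: the change of OAS1 was then 1.24 in g2_1 and 0.92 in g3_4 (adjusted p = 0.00313 and 0.0168), that of OAS3 0.95 and 0.76 (adjusted p = 0.00537 and 0.0183) and that of OASL 0.90 and 0.74 (adjusted p = 0.0117 and 0.0315). That fit keeps array 1 of the clones, on which these genes were high too (OAS1 by 0.565, OAS3 by 0.50 and OASL by 0.525 against arrays 2 and 3). Without array 1 of every group the changes were smaller, 1.07 and 0.71 for OAS1, 0.77 and 0.60 for OAS3 and 0.705 and 0.585 for OASL. All 4 OAS genes passed there in both clones.

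Of the genes of the ISG15 and ubiquitin system, HERC5 passed in both clones and HERC6 in g2_1. ISG15, the ubiquitin-like protein itself, was at 6.43 to 7.01 in control cells and at 6.62 to 6.92 in the clones and did not pass. USP18, which removes ISG15 and restrains the interferon receptor, was at 8.67, 7.94 and 8.04 in control cells, at 8.74, 8.03 and 7.65 in g2_1 and at 8.69, 8.01 and 7.84 in g3_4, with array 1 highest in every group and changes of -0.08 and -0.04 (SE 0.30). HERC5, the main ligase for ISG15, rose from 8.36, 8.23 and 8.39 to 9.10, 9.15 and 9.01 in g2_1 and 8.66, 8.95 and 8.95 in g3_4. The rise was 0.76 (adjusted p = 0.000783 in limma) and 0.53 (SE 0.11 each, adjusted p = 0.0076). HERC6, its relative close by on chromosome 4, was above all control arrays on all clone arrays and passed in g2_1 alone (0.36, SE 0.11, adjusted p = 0.0477), a call lost without any single array other than control array 1 (adjusted p = 0.0631 to 0.146). TRIM22, DTX3L and the ADP-ribosylation genes PARP9 and PARP14 did not pass in either clone. The change of TRIM22 in g3_4 was -0.51 (adjusted p = 0.0544), and it passed there without control array 1 (-0.57, adjusted p = 0.0466), without g3_4 array 2 (adjusted p = 0.0205) and with the lowest quartile of rows left out (adjusted p = 0.0498). PARP14 was at 10.66 to 10.82 over all 9 arrays.

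Of the sensors, IFIH1 passed in 1 clone. IFIH1, the RNA sensor MDA5, was at 10.02, 10.06 and 10.24 in control cells, at 9.30, 9.76 and 9.62 in g2_1 and at 8.94, 9.74 and 9.58 in g3_4. All clone arrays were below all control arrays, and IFIH1 passed in g3_4 (-0.69, adjusted p = 0.0380 in limma) and not in g2_1 (-0.55, SE 0.19 each, adjusted p = 0.0945). In g3_4 the call was lost without g2_1 array 2 or 3, g3_4 array 1 or 3, or control array 2 or 3 (adjusted p = 0.0503 to 0.105) and lost after centring (adjusted p = 0.0584) and with only the groups compared (adjusted p = 0.0676). In g2_1 it was gained without g3_4 array 1 (adjusted p = 0.0234) and with only the groups compared (adjusted p = 0.0416). IFI16, a DNA sensor, was at 10.68, 11.46 and 11.75 in control cells and at 11.65 to 11.83 in the clones, and did not pass except without control array 3 (0.71 and 0.68, adjusted p = 0.0347 and 0.0429). The helicase gene DDX60 did not pass.

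Among genes of nucleotide metabolism, CMPK2, a mitochondrial nucleotide kinase that adjoins RSAD2 on chromosome 2, was near the floor in control cells (4.55, 4.54 and 4.60) and in g2_1 (4.44, 4.50 and 4.51) and higher in g3_4 (5.45, 5.07 and 5.13). It rose in g3_4 alone (0.65, SE 0.11, adjusted p = 0.0024 in limma). RSAD2, which encodes viperin, an enzyme that makes a chain-terminating nucleotide, stayed between 5.26 and 5.88 on all arrays and did not pass. ISG20, an exonuclease, passed in g2_1 alone (0.53, SE 0.16, adjusted p = 0.0486), a call lost without any array of g2_1, without g3_4 array 2 or 3 and without control array 2 or 3 (adjusted p = 0.0614 to 0.168).

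**Figure D3:**
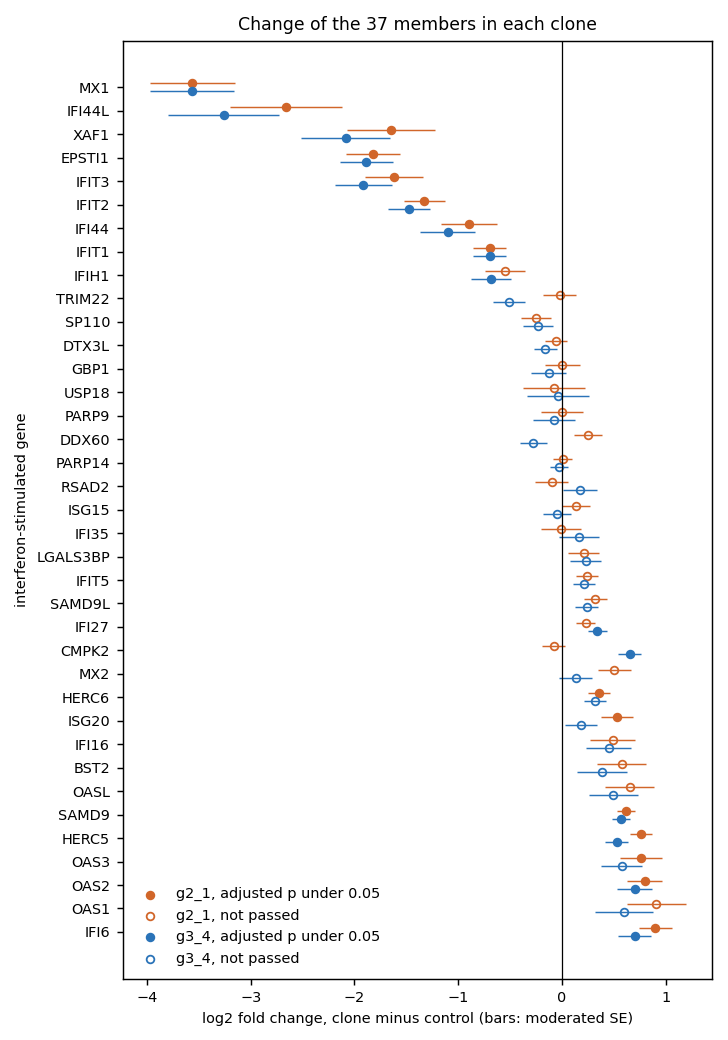
Log2 fold change of each of the 37 members (vertical axis, ordered by the mean of both clones) in clone g2_1 and clone g3_4 against control (horizontal axis); bars are the moderated SE and filled points have an adjusted p under 0.05. The falls reach -3.57 for MX1 while no rise exceeds 0.91, the value of OAS1 in g2_1, which did not pass.

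By count, 8 members fell and 7 rose in g2_1 (8.06% and 6.19% of all transcript clusters did), and 9 fell and 6 rose in g3_4 (8.16% and 6.12%). Besides the 12 shared by both clones, 6 members passed in 1 clone, ISG20, OAS3 and HERC6 in g2_1 and IFIH1, IFI27 and CMPK2 in g3_4, and 19 passed in neither. In g2_1 the falls numbered 5 without g2_1 array 3, and the rises 12 without control array 1 and 4 without g2_1 array 1 or control array 2. In g3_4 the rises numbered 11 without control array 1 and 3 without g3_4 array 2. The share of all transcript clusters in these fits of a clone is not given, so these counts describe the members alone. With a further limit of 1 on the size of the log2 change, 6 fell in g2_1 and 7 in g3_4 (3.24% and 3.19% of all) and 0 rose in either (0.943% and 1.04% of all). Irrespective of any test, all 6 clone arrays lay below all 3 control arrays in 9 members (10.6% of all transcript clusters) and above them in 8 (9.7% of all). In 7 members, IFI44, IFIT1, RSAD2, CMPK2, TRIM22, GBP1 and IFI27, every group mean was below the array median; whether changes there are compressed was not tested. The 50 nearest expressed genes of the members had median changes between -0.22 and 0.32, and with these subtracted MX1 was at -3.68 in g2_1 and -3.66 in g3_4, IFI44L at -2.68 and -3.20, and IFI6 at 0.90 and 0.64.

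In limma 0 of 37 members were called higher in g3_4 than in g2_1 (0.0335% of all transcript clusters were) and 0 lower (0.0191%; 0.0526% in either direction), while 4 had an unadjusted p under 0.05 (4.41% of all). These were CMPK2, higher in g3_4 by 0.73 (95% interval 0.49 to 0.98, adjusted p = 0.0599), DDX60 at -0.53 (-0.82 to -0.24, adjusted p = 0.462), TRIM22 at -0.49 (-0.83 to -0.14, adjusted p = 0.758) and MX2 at -0.37 (-0.72 to -0.02, adjusted p = 0.997). CMPK2 passed with array weights (0.67, adjusted p = 0.0150) and without control array 1 (adjusted p = 0.0279). For MX1 the interval of the difference ran from -0.91 to 0.90 and for IFI44L from -1.78 to 0.58, so these arrays leave room for differences of that size between the clones. Without a test, 29 members were lower in g3_4 than in g2_1 and 7 higher, with a median of -0.10 beside 0 over all transcript clusters. The share of all transcript clusters on each side is not given, so this count describes the members alone.

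The control arrays themselves differed in the set. On control array 1 against control arrays 2 and 3, 11 members were higher (29.7%; 5.05% of all transcript clusters) and 1, IFI16, was lower (2.70%; 5.06% of all). This compares a single array with a pair, and that array was assumed to vary like the pairs of arrays 2 and 3 in the 3 groups. The members highest there were IFI44L by 2.16 (SE 0.44, adjusted p = 0.0184 in limma), XAF1 by 1.94 (SE 0.15, adjusted p = 0.000648), MX1 by 1.91 (SE 0.15, adjusted p = 0.000648) and IFI44 by 1.12 (SE 0.20, adjusted p = 0.0117), all of which fell in the clones. Next came OAS1 by 0.98 (adjusted p = 0.0118), BST2 by 0.85 (adjusted p = 0.0169), OASL by 0.74 and PARP9 by 0.66 (adjusted p = 0.0188 each). USP18 by 0.68, OAS3 by 0.56 and IFI6 by 0.59 passed as well (adjusted p = 0.0447, 0.0256 and 0.0469). Of the 11, 6 are members that changed in neither clone or in 1. Without control array 2 the count of higher members was 6: OAS1, OASL, PARP9, OAS3, USP18 and IFI6 no longer passed (adjusted p = 0.0555 to 0.141), and IFIT3 did (1.43, adjusted p = 0.0106). OAS3 was also lost without g3_4 array 2 or 3 or control array 3, USP18 without g3_4 array 2 or 3 or control array 3, and IFI6 without array 2 or 3 of any group (adjusted p = 0.0512 to 0.140). EPSTI1 passed without control array 3 (adjusted p = 0.0316). IFI6 was lost after centring (adjusted p = 0.0521) and with array weights (adjusted p = 0.0559), as was USP18 with array weights (adjusted p = 0.0555), while IFIT3, EPSTI1 and SP110 passed with trend and robust variances (adjusted p = 0.0314, 0.0446 and 0.0460).

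The clones had part of this pattern. On array 1 against arrays 2 and 3, averaged over both clones, USP18 was higher by 0.83 (SE 0.12, adjusted p = 0.0341 in limma) and OAS3 by 0.50 (SE 0.09, adjusted p = 0.0449), which is 5.41% of the set beside 0.134% of all transcript clusters, and 0 members were lower (0.68% of all). Both calls were lost on leaving out array 2 or array 3 of any group (adjusted p = 0.0559 to 0.136 for USP18 and 0.0834 to 0.165 for OAS3). OAS1, OASL and BST2, which passed in control cells, had values of 0.57, 0.53 and 0.44 in the clones and did not pass there (adjusted p = 0.0781, 0.0670 and 0.133). OAS2 passed in neither (0.25 in control cells and 0.34 in the clones, adjusted p = 0.526 and 0.304). On array 1 of the clones MX1 was at -0.09 and XAF1 at -0.38 against arrays 2 and 3. The difference between the control and the clones in this contrast passed for 2 members (5.41%; 1.31% of all transcript clusters), MX1 at 2.0 (SE 0.18, adjusted p = 0.0033) and XAF1 at 2.32 (SE 0.18, adjusted p = 0.0019), and not for IFI44L (1.63, SE 0.54, adjusted p = 0.174) or IFI44 (0.95, SE 0.24, adjusted p = 0.0919). In the opposite direction 0 members passed (0.948% of all).

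**Figure D4:**
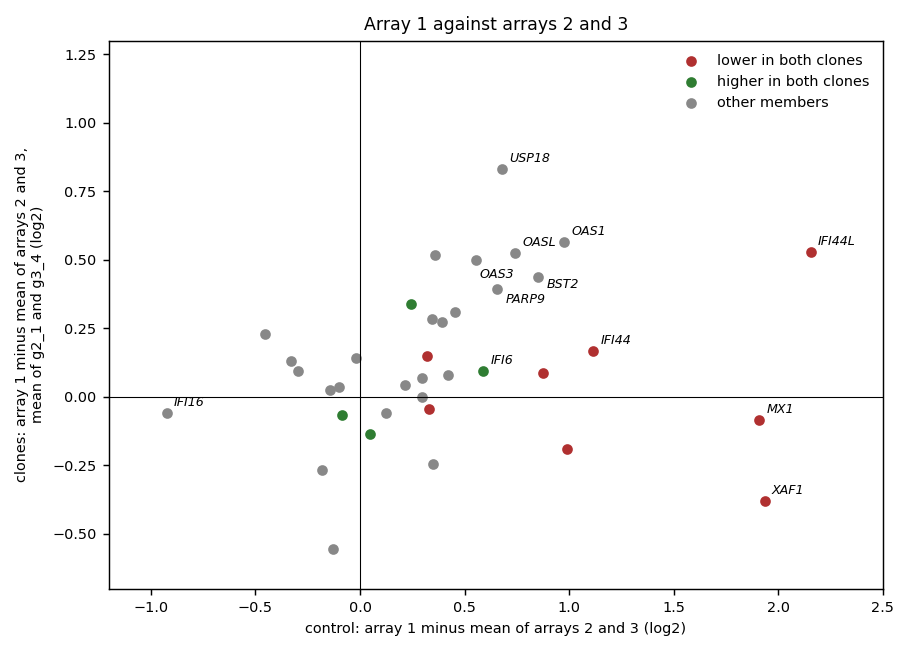
Level on array 1 minus the mean of arrays 2 and 3 in control cells (horizontal axis) and in the clones (vertical axis, mean of g2_1 and g3_4), both in log2; each point is 1 of the 37 members and the names mark those past the threshold in control cells. MX1 and XAF1 lie far to the right and below 0 on the vertical axis, whereas USP18, OAS3, OAS1 and OASL are above 0 on both axes.

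The falls did not rest on control array 1 alone. Without it, the same 8 members fell in both clones (21.6%; 7.21% of all transcript clusters in that fit), with smaller values: MX1 at -2.93 in each clone (adjusted p = 8.8e-08 in g2_1 and 8.5e-08 in g3_4 in limma), IFI44L at -1.94 and -2.54 (adjusted p = 0.00276 and 0.000461), EPSTI1 at -1.53 and -1.60, XAF1 at -1.0 and -1.44 (adjusted p = 0.00316 and 0.000273) and IFI44 at -0.53 and -0.73 (adjusted p = 0.0408 and 0.00776). In that fit 9 members rose in both clones (24.3%; 4.78% of all transcript clusters, against 4.48% with all arrays), IFI6, OAS2, HERC5 and SAMD9 together with OAS1, OAS3, OASL, BST2 and HERC6. It keeps array 1 of the clones, on which OAS1, OAS3, OASL and BST2 were high as well. Without array 1 of every group HERC6 did not pass in either clone (adjusted p = 0.0627 in g2_1 and 0.0676 in g3_4 in limma), and the other members named passed in both. The share of all transcript clusters in this last fit is not given.

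Other genes of the interferon pathway were taken from a list of 104, of which 96 were analysed here. Of the 96, 12 fell and 11 rose in both clones, beside 6.97% and 4.48% of all transcript clusters, and 73 did neither. Of the 13 interferon genes found, 0 passed in either clone. The type I genes were all low: IFNB1 was at 3.91 to 4.46 and IFNA2 at 4.33 to 4.76. IFNG, the type II interferon, ranged from 4.34 on control array 1 to 8.32 on g2_1 array 3. It was at 6.88, 7.81 and 8.32 in g2_1 and at 7.09, 6.72 and 7.18 in g3_4. Its means were higher than in control cells by 1.79 in g2_1 and 1.11 in g3_4 (SE 0.55 each), but it did not pass (adjusted p = 0.0561 and 0.244 in limma). On control array 1, where 11 members were high, IFNG was lower than on control arrays 2 and 3 (6.52 and 6.79; adjusted p = 0.0018).

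Receptors and kinases were present in all groups. IFNAR1 was at 8.22 to 8.73 and did not pass. IFNAR2 was at 9.84, 10.12 and 10.16 in control cells and at 10.34 to 10.65 in the clones, and passed in g3_4 alone (0.48, SE 0.11, adjusted p = 0.0151 in limma), which was lost without g3_4 array 3 (adjusted p = 0.0677). JAK1 passed in g3_4 (0.45, SE 0.10, adjusted p = 0.0138), which was lost without g3_4 array 1 (adjusted p = 0.0586), and in g2_1 only without control array 3 (0.37, adjusted p = 0.0478). TYK2 was at 9.64 to 9.98 and did not pass. IFNLR1, the specific chain of the receptor for type III interferons, rose from 6.4, 7.21 and 7.21 to 8.12, 7.72 and 8.04 in g2_1 and 8.02, 7.91 and 8.06 in g3_4, by 1.02 and 1.06 (SE 0.20, adjusted p = 0.00601 and 0.00491). JAK2, which serves the receptor for type II interferon, fell in both (-2.73 and -2.68, SE 0.19).

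IRF9, which binds DNA at the ISRE, was at 8.77, 8.68 and 8.94 in control cells, at 8.29, 8.23 and 8.45 in g2_1 and at 8.26, 8.07 and 8.45 in g3_4. Its fall was of -0.47 (adjusted p = 0.0251 in limma) and -0.54 (SE 0.12 each, adjusted p = 0.0133), with no overlap between clones and control. Its call was lost in g2_1 without g2_1 array 1 or 2 or control array 3 (adjusted p = 0.0807, 0.101 and 0.0788) and in g3_4 without g3_4 array 2 (adjusted p = 0.0611). IRF1, an activator induced by interferon gamma, fell from 9.12, 9.06 and 8.87 to 8.11, 7.88 and 8.16 in g2_1 and 8.50, 8.20 and 8.55 in g3_4, by 0.97 and by 0.60 (SE 0.13, adjusted p = 0.000442 and 0.00894). IRF5 rose by 0.80 and 0.92 (SE 0.20, adjusted p = 0.0212 and 0.0105), in g2_1 not without any one array of that clone (adjusted p = 0.0504 to 0.0836).

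Of 16 sensors and adaptors, RIGI, the RNA sensor RIG-I, fell and AIM2, STING1 and TICAM1 rose in both clones. RIGI changed by -0.62 (adjusted p = 0.00937 in limma) and -0.47 (SE 0.13 each, adjusted p = 0.0370); in g3_4 it passed only with g2_1 array 2, g3_4 arrays 1 and 2 and all control arrays kept (adjusted p = 0.0542 to 0.123 without one of them). AIM2, a DNA sensor of inflammasomes, rose by 1.16 and 0.63 (SE 0.16); in g3_4 the call was lost without g3_4 array 2 or 3 or control array 2 (adjusted p = 0.0736 to 0.0883). STING1, the adaptor of DNA sensing, rose by 0.56 and 0.36 (SE 0.11), and in g3_4 passed only with all arrays or without control array 3 (adjusted p = 0.0576 to 0.126 otherwise). TICAM1, the adaptor of TLR3, rose by 0.56 in each (SE 0.13), a call lost in g2_1 without g2_1 array 2 (adjusted p = 0.0514) and in g3_4 without g3_4 array 1 or 2 (adjusted p = 0.0548 and 0.0523).

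Of 8 regulators found, UBE2L6, the conjugating enzyme for ISG15, fell by 0.62 and by 0.64 (SE 0.13, adjusted p = 0.00673 and 0.00592 in limma). Its level was 11.58 to 11.96 in control cells and at most 11.26 on every clone array, while the ISG15 ligase gene HERC5 rose and ISG15 itself did not pass. SOCS3, a feedback inhibitor of cytokine receptors, rose by 0.83 and 0.74 (SE 0.19, adjusted p = 0.0117 and 0.0218), a call lost in g2_1 without g2_1 array 2 (adjusted p = 0.0571) and in g3_4 without g3_4 array 1 or 3 or control array 2 or 3 (adjusted p = 0.0602 to 0.0916).

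Among 43 further interferon-stimulated genes outside the set, 7 fell and 5 rose in both clones. Of the 7 falls, those of CXCL10, GBP5, LAMP3 and PSMB9 were the largest by the mean over both clones. CXCL10, a chemokine that attracts T cells, was at 10.92, 9.35 and 9.52 in control cells and at 4.29 to 4.99 in the clones, and like MX1 was highest on control array 1. GBP5, a guanylate-binding protein, was at 7.40, 8.04 and 8.01 in control cells, at 4.78, 4.58 and 4.56 in g2_1 and at 4.47, 4.54 and 4.46 in g3_4, with changes of -3.18 and -3.33 (SE 0.16, adjusted p = 2.4e-07 and 1.6e-07 in limma), and it was lower, not higher, on control array 1. LAMP3, a lysosomal membrane protein of mature dendritic cells, fell from 7.57, 6.01 and 6.09 to 4.27 to 4.49 (-2.16 and -2.14, SE 0.32). PSMB9, which encodes an immunoproteasome subunit, changed by -0.80 and -0.85 (SE 0.10). By the same mean, the 4 largest of the 5 rises were of GBP2, which went from 9.59, 10.36 and 10.94 to 11.32 to 11.47 (1.12 and 1.05, SE 0.25), TNFSF10, which encodes the death ligand TRAIL (1.01 and 0.57, SE 0.13), ETV7 (0.75 and 0.81, SE 0.10) and the cytidine deaminase gene APOBEC3G (0.70 and 0.63, SE 0.12). In g3_4 the call of GBP2 was lost without any array of that clone (adjusted p = 0.0563 to 0.0595) and that of TNFSF10 without g3_4 array 2 or 3 (adjusted p = 0.0664 and 0.0528). The remaining rise was of APOL3 (0.48 and 0.73, SE 0.12, adjusted p = 0.0232 and 0.0021), whose call in g2_1 was lost without g2_1 array 1 or 2 or control array 1 or 3 (adjusted p = 0.0506 to 0.0920). None of CXCL10, GBP5, LAMP3, PSMB9, ETV7 or APOBEC3G lost its call in either clone when any single array was left out. The remaining falls were of EIF2AK2, TAP1 and WARS1, and these were less stable. Of the 9 fits that each left out 1 array, the call was lost in 7 for EIF2AK2 in g2_1, in 2 for TAP1 in g3_4 and in 8 for WARS1 in g3_4. Their adjusted p reached 0.139, 0.0691 and 0.143 in limma.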

How the data were processed

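The values are log2 signals of 9 Clariom S arrays, deposited by the authors; per the submitters' processing notes, RMA and Transcriptome Analysis Console 4.0 were used. The genome build is not given in the sources used here. RMA draws arrays to a common distribution and can compress changes near the floor; the number of arrays and the spread between them limit the precision. Of 21448 rows, 555 with unmapped IDs were left out and 20893 tested; the platform table named 17705 with 1 gene each, 3188 were unnamed and 0 had several. Members were matched by symbol.

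limma 3.58.1 (R 4.3.3; lmFit, eBayes) was fitted over all rows, with 1 coefficient per group (6 residual degrees of freedom) or, for array 1, 6 coefficients (3 residual degrees of freedom); it was tested on simulated data. P-values are two-sided and Benjamini-Hochberg adjusted over all rows; a call needs an adjusted p under 0.05. Alternatives were median centring, leaving out the lowest quartile of rows, trend and robust variances, array weights, a fold limit, fits of only the groups compared, the array number as a block, subtraction of the median of 50 neighbours, and leaving out arrays. The exact test of members at shared loci was added after the values were seen and counts each array as a separate unit.

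Members, lists and rules were chosen with earlier results of these data known. Members called in both clones, between clones or on control array 1 are given in full (the 4 smallest p where fewer than 4 passed), as are IFNAR1, IFNAR2, JAK1, TYK2 and IRF9, with up to 4 other pathway genes per role and direction. PARP14, GBP1, ISG15, RSAD2, IFNB1, IFNA2, IFNG, APOL3, EIF2AK2, TAP1 and WARS1, and members given as not passed, were named after their values were seen.

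Deviations from group means correlated between same-numbered arrays of the clones (r = 0.435, 0.191 and 0.310 across rows). Against control r was 0.285, 0.0426 and 0.183 for g2_1 and 0.298, 0.0565 and 0.257 for g3_4. Control array 1 had a negative r with arrays 2 and 3 of both clones, and control array 3 correlated most with array 3 of each. Control array 2 correlated more with array 3 of the clones (0.142 and 0.121) than with array 2. The number thus pairs the clones with each other and, for arrays 1 and 3, in part with control. The main fit does not use it, and the block is an alternative. No pair of arrays had the same values in more than 2.88% of rows.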

Additional observations from a re-analysis of the deposited data

Results flagged for a closer look

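The rise on array 1 differed between control cells and clones for 2 members, by a test of that difference in limma. For MX1 array 1 exceeded arrays 2 and 3 by 1.91 in control cells and by -0.09 in the clones, a difference of 2.0 (adjusted p = 0.0033). For XAF1 the values were 1.94 and -0.38, a difference of 2.32 (adjusted p = 0.0019). The clone levels of MX1 lie near the first quartile of the arrays and those of XAF1 above it. RNA integrity was highest on array 1 of every group, and its part in these values was not tested.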

How the results depend on the processing

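The sign held for every called member under the alternatives run, and no result turned. The counts of members moved more. The share of all transcript clusters called in the same fit is given only for the fold limit in each clone and, for both clones, without control array 1. The other counts, here and on leaving out arrays, describe the members alone and do not tell whether they moved more than other rows. In g2_1 the 7 rises became 13 after centring (which moved the median change of all transcript clusters from 0.03 to 0.15 in g2_1 and 0.14 in g3_4), 12 with array weights, 11 with a replicate block and 0 with a fold limit. The rises gained in g2_1 were OAS1, OASL and MX2 in the first 3 of these, with SAMD9L, IFI27 and IFIT5 after centring, SAMD9L and BST2 with array weights, and BST2 with the block. The block also brought IFIH1 past the threshold in g2_1 (adjusted p = 0.0218) and TRIM22 in g3_4 (adjusted p = 0.0162 in limma). In g3_4 the 6 rises became 10 with array weights and 0 with the fold limit. In both clones the 4 rises became 7 after centring, 8 with array weights, 7 with the replicate block and 0 with the fold limit. The block changed no call between the clones. Against control it takes the numbers as pairs, which the correlations between arrays bear out in part for arrays 1 and 3 but not for array 2. Between the clones 1 member was higher with array weights. On control array 1 the fold limit left 4 higher and 0 lower. On array 1 of the clones trend and robust variances gave 6 higher and 1 lower, array weights 1 lower, and the fold limit 0 higher. For the difference between control and clones, leaving out the lowest quartile or using trend and robust variances gave 1 lower, IFI16.

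Leaving out arrays gave 3 to 9 falls and 0 to 9 rises in both clones, 3 to 9 falls and 1 to 12 rises in g2_1, 6 to 10 falls and 1 to 11 rises in g3_4, and 0 to 1 rises between the clones. For control array 1 it gave 6 (without control array 2) to 11 higher members, for array 1 of the clones 0 to 2, and for the difference 2 to 3 higher and 0 to 1 lower. The most rises in each clone came without control array 1 alone, and the fewest without all arrays numbered 2, a fit with fewer samples. The calls of ISG20 (adjusted p = 0.0757), HERC6 (0.0936), IFI27 (0.0757) and IFIH1 (0.0676) were lost with only the groups compared in limma, and those of HERC6 (0.0806) and IFI27 (0.0554) with trend and robust variances. The lowest-quartile filter left out IFIT1 and GBP1. Each member has 1 row, so another choice of row could not be made. Signals near the floor limit the changes of low members.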
